A study of Mus musculus with 6 samples.

Results

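Skeletal muscle fibre genes were followed through RNA of whole mammary gland from female mice aged 10 and 5 weeks. They are 41 genes named for the proteins that contract, anchor, excite or fuel a muscle fibre, chosen by name and grouped into 14 fast fibre genes, 7 slow fibre genes, 12 genes of sarcomere structure, 2 of calcium release and 6 of energy supply. All 41 had at least 1 probe set annotated to a single gene symbol, 70 probe sets in all, out of 18193 genes with such a probe set. The probe set with the highest mean over the 6 arrays stood for each gene. Of the 41, 39 were among the 13002 genes bright enough to be tested, and Myh7 and Tnni1, both slow fibre genes, were not.

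All animals were bitransgenic females from crossing a line labelled LH, a name the labels do not spell out, with MMTV-neu mice, in which the promoter of a mouse mammary tumour virus makes the oncogene neu (Erbb2) active, mainly in mammary epithelium. The age groups, 10 weeks and 5 weeks, each had 3 arrays, every array carried a pool of RNA from 3 animals, and so 9 animals stood for an age. Both ages carried both transgenes, so no group lacks them. Signals were linear intensities scaled to a common mean, with array medians of 156.4 to 172.5 and brightest signals of 15339.6 to 22312, and the sources used here do not say what was dissected with the gland.

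The labelled tissue was borne out by its markers in every pool. Csn2, the beta casein of milk, gave 15405, 13838 and 15709 at 10 weeks and 14424, 15610.1 and 11817 at 5 weeks. Adipoq, the adiponectin of fat cells, gave 10211, 11883 and 11875 at 10 weeks and 13272, 14006 and 12267 at 5 weeks. Signals are listed throughout for pools 1, 2 and 3 of an age in that order, and the pool numbers are names only. In such bulk RNA, fewer muscle fibres in a pool and less RNA per fibre cannot be told apart.

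A skeletal muscle fibre is a large cell with many nuclei, packed with sarcomeres in which myosin filaments pull on actin filaments. Troponin on the actin filament senses calcium released from the sarcoplasmic reticulum, and titin, nebulin, alpha-actinin and the proteins of the Z-disc and M-band hold the filaments in register. Fast fibres use one set of myosin, troponin and calcium-handling genes and slow fibres another, and several slow fibre genes are also used by the heart. The mammary gland has contractile myoepithelium of the smooth muscle kind but no skeletal fibres of its own, and in the mouse the glands lie next to skin and body wall muscle.

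Muscle fibre genes are known to be switched on through E-boxes, the sites of the MyoD family, through sites of MEF2 factors and through CArG boxes, the sites of serum response factor. Promoters are shown for 3 pairs of fast and slow isoforms, for Myh4, the fast gene with the largest difference, and for Pgam2, the member with the largest difference of all, so that the letters can be set beside the values below. Each is the 250 bases before the gene's start, read 5′ to 3′ on the gene's strand, from RefSeq on GRCm38.p6. Capitals mark the E-box CAGCTG, the E-box CACCTG, which reads CAGGTG where it lies on the other strand, TATAAA, which there reads TTTATA, the MEF2 consensus and the CArG box.

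The troponin C pair comes first, with the fast gene Tnnc2 at chr2:164779735-164779984 (minus strand) and the slow gene Tnnc1 at chr14:31208062-31208311 (plus strand).
Tnnc2: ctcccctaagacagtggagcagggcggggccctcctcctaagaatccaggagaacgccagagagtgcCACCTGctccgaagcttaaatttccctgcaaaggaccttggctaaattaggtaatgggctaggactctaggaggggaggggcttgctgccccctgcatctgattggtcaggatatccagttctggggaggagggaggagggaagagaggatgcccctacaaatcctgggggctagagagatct
Tnnc1: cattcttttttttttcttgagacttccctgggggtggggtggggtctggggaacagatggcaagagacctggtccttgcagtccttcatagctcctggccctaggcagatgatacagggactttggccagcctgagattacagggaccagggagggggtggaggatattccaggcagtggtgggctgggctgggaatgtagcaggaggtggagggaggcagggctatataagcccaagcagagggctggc

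The window of Tnnc2 held 1 CACCTG and that of Tnnc1 none of the marked motifs. Next are the essential light chains of myosin, the fast Myl1 at chr1:66945057-66945306 (minus strand) and the slow Myl3 at chr9:110763428-110763677 (plus strand).
Myl1: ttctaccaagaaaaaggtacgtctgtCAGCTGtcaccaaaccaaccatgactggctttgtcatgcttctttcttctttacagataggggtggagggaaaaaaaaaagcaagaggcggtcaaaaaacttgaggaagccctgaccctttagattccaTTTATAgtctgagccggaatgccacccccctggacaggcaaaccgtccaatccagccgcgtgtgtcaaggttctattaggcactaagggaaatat
Myl3: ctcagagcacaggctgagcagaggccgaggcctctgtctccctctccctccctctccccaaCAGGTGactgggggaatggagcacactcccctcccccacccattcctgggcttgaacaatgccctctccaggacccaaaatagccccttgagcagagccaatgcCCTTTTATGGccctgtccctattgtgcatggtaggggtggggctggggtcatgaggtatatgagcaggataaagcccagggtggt

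Myl1 had a CAGCTG and a TATAAA on the other strand, and Myl3 had a CAGGTG and a CArG box. The myosin-binding proteins C follow, the fast Mybpc2 at chr7:44524670-44524919 (minus strand) and the slow Mybpc1 at chr10:88605153-88605402 (minus strand).
Mybpc2: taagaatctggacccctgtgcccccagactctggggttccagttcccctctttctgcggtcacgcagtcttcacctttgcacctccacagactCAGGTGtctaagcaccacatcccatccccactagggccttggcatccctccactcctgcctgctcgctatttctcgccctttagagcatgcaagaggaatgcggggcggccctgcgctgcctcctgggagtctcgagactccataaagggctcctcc
Mybpc1: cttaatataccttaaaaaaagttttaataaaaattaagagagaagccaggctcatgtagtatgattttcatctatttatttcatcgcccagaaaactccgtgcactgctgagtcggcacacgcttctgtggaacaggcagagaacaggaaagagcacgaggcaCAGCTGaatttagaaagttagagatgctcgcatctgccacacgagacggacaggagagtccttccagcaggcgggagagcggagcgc

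Each of these 2 windows had a single marked E-box. The last windows are those of the fast myosin heavy chain gene Myh4 at chr11:67237562-67237811 (plus strand) and of the glycolytic gene Pgam2 at chr11:5803797-5804046 (minus strand).
Myh4: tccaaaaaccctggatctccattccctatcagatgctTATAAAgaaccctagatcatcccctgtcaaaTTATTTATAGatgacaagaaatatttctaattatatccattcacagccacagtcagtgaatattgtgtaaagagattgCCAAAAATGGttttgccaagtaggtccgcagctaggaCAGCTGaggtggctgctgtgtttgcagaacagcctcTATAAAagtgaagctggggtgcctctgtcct
Pgam2: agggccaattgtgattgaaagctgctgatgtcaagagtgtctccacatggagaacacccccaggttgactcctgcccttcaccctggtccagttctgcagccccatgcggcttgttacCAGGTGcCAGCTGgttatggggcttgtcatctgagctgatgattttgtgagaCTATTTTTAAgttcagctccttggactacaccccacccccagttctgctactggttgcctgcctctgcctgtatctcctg

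Myh4 held 6 marked matches, among them a MEF2 site that overlaps a TATAAA, and Pgam2 held CAGGTG and CAGCTG side by side and a MEF2 site. Of the 41 genes, 32 had at least 1 window in the RefSeq table, with 39 windows in all, and a gene was counted where any of its windows held the motif. CAGCTG was found for 16 of the 32 genes (50%), against 14.7% of all 27025 genes, which had 32851 windows. CACCTG was found for 10 (31.2%, against 19.4%), TATAAA in 7 (21.9%, against 14.3%), the MEF2 consensus in 5 (15.6%, against 3.42%) and the CArG box in 5 (15.6%, against 1.62%), each searched on both strands. Any E-box of the form CANNTG, which includes CAGCTG and CACCTG, was found for 27 (84.4%, against 69.3%). Among fast genes with a window, 5 of 10 had CAGCTG and 3 of 10 the MEF2 consensus, and among slow genes 3 of 7 and 0 of 7. A match here is a run of letters, and binding was not measured.

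Most of these genes were lower at 10 weeks than at 5 weeks, and none was higher by the test. Of the 39 tested, 22 fell at an adjusted p under 0.05 and 0 rose, by limma fitted over all genes with Benjamini-Hochberg adjustment over 13002 genes. Over all genes 19.7% were called lower and 16.1% higher. At an unadjusted p under 0.05 the counts were 33 lower and 0 higher, where 24.8% of all genes were lower. The 3 pools of 10 weeks all lay below the 3 of 5 weeks for 30 of the 39, against 26.3% of all genes, and none lay above, against 24.0%. The median log2 difference, 10 weeks minus 5 weeks, was -2.11, with a range of -3.27 to 0.35, and over all genes it was -0.004. Differences of -2 or below were seen in 0.884% of all genes tested. Here and below a difference is on the scale of log2(signal + 32), which understates changes of dim genes. Its SE is that of the fit with n = 3 pools per age, except for the pairs of fast and slow isoforms.

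Pools of the same age were far apart in these genes. In 36 of the 39 the lowest 10-week signal was that of pool 1, and in 37 the lowest 5-week signal was that of pool 2, where 33.3% and 35.7% of all genes had that order. The log2 level of 10-week pool 1 minus that of the other 10-week pools had a median of -2.47 (0.018 over all genes). The level of 5-week pool 2 minus that of the other 5-week pools had a median of -1.32 (-0.010 over all genes). The median age difference was -1.11 without 10-week pool 1, and 20 genes were then called lower, 14 of them among the 22. Only 3 calls were kept without 5-week pool 1 (Mybpc2, Des and Mybph) and 2 without 5-week pool 3 (Des and Mybph), so the count rests on those pools. The differences stayed near their size: the median of the fast genes, -2.14 with all pools, was -2.04 without 5-week pool 1 and -1.97 without 5-week pool 3, and that of the sarcomere structure genes, -2.21 with all pools, was -2.07 and -1.85.

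**Figure D1:**
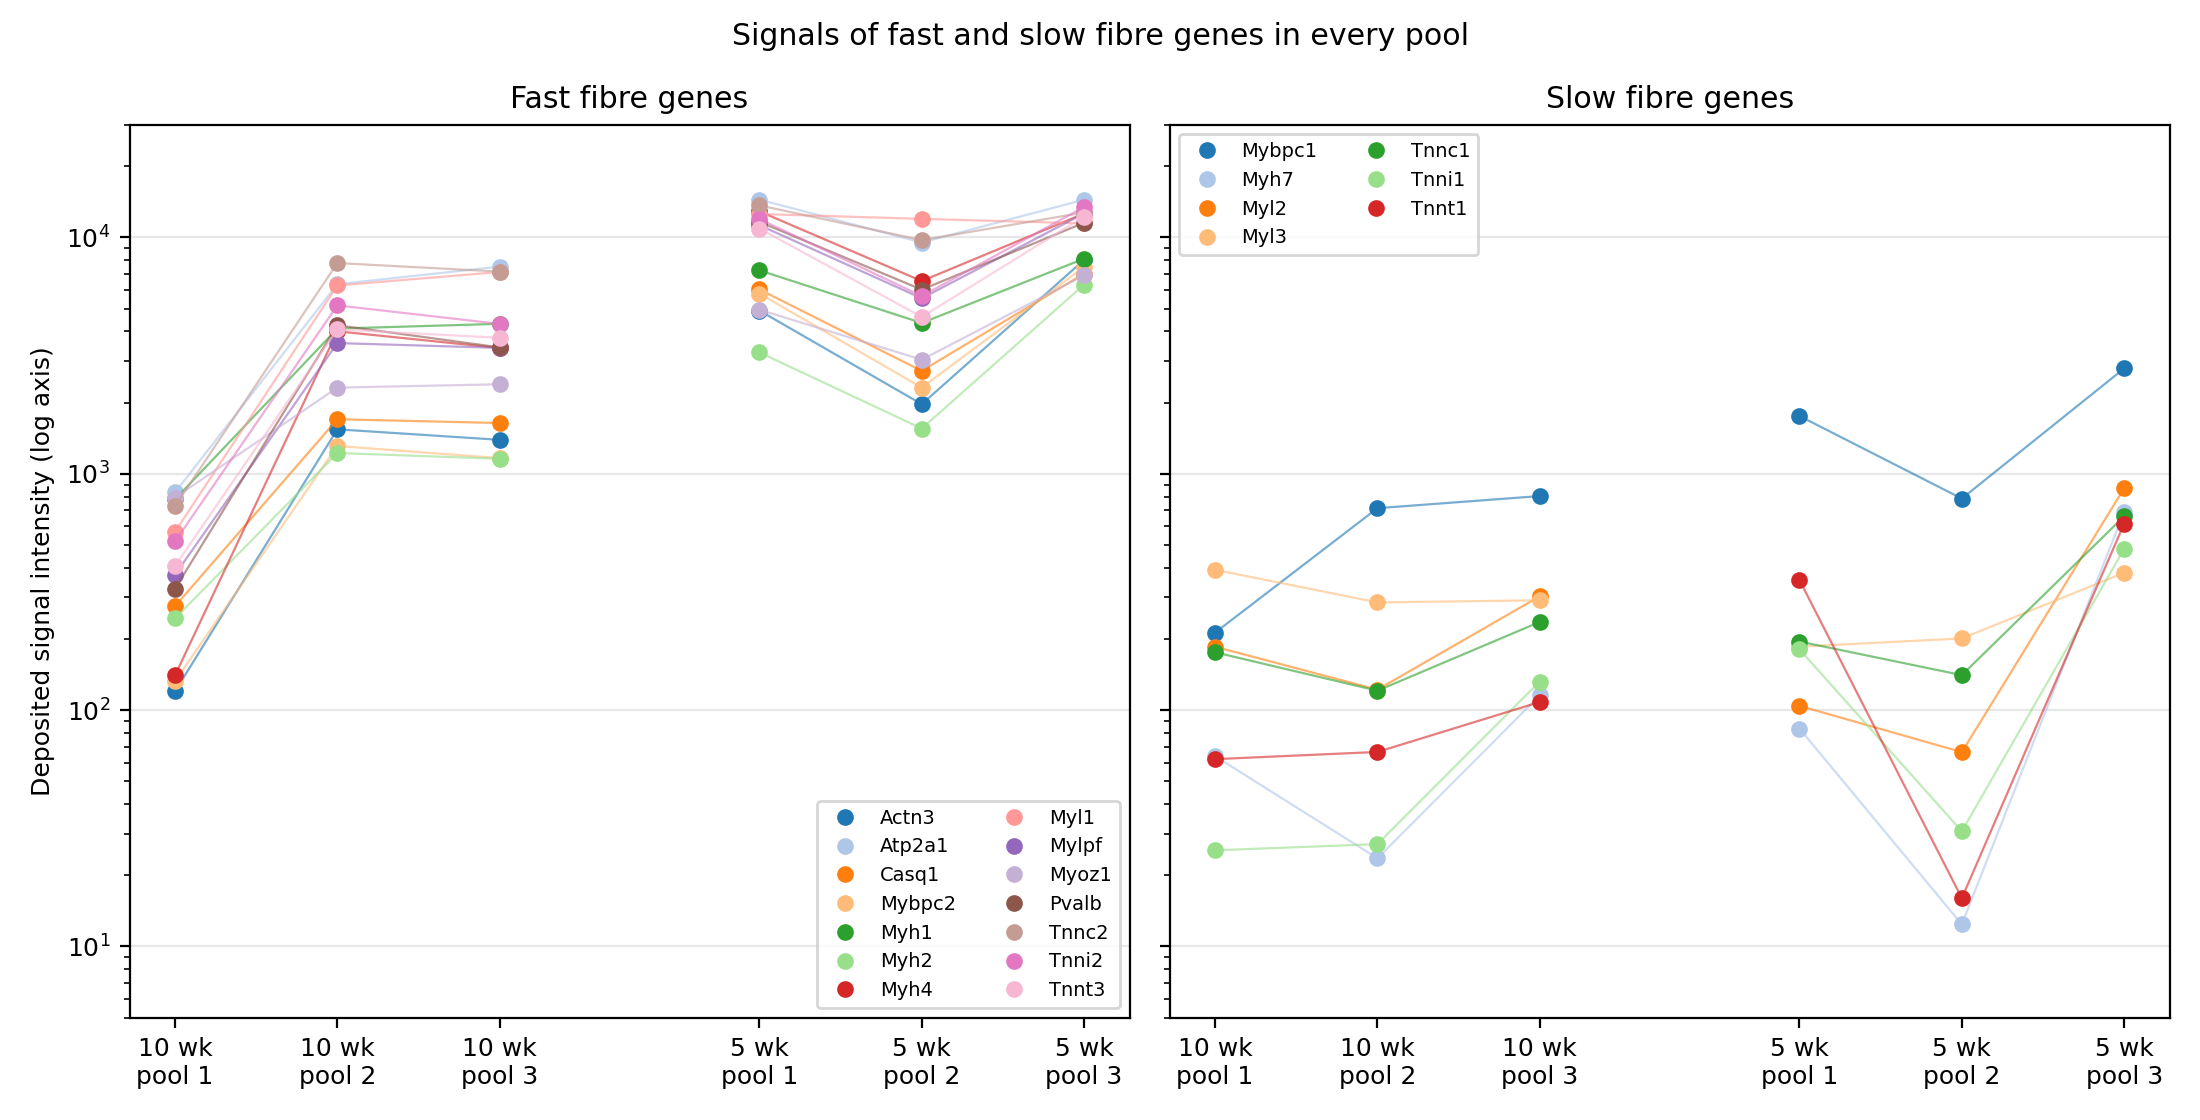
Deposited signal of each fast (left) and slow (right) fibre gene in each of the 6 pools, on a log axis; lines only join the values of 1 gene within an age, and pools have no order. All 14 fast genes are lowest in 10-week pool 1 and all 7 slow genes have their highest 5-week signal in pool 3.

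Fast fibre genes were lower at 10 weeks throughout. All 14 passed the filter on dim probe sets, 7 fell by the test, and in all 14 the ages did not overlap. Their median difference was -2.14, with a range of -2.94 to -1.39, and in all 14 the lowest of the 6 signals was that of 10-week pool 1. The heavy chains of myosin are the motors of the thick filament and set a fibre's speed. Myh4, the heavy chain of the fastest fibres (type IIb), gave 140.3, 4006 and 3405 at 10 weeks and 12893, 6537 and 12623 at 5 weeks, and its difference of -2.94 ± 1.02 (SE) missed the threshold (adjusted p = 0.0509). Myh2, the heavy chain of type IIa fibres, gave 244, 1224 and 1157 at 10 weeks and 3261, 1554 and 6313 at 5 weeks and fell by 2.11 ± 0.62 (SE, adjusted p = 0.0275). Myh1, the heavy chain of type IIx fibres, gave 779.5, 4114 and 4309 at 10 weeks and 7257, 4345 and 8129.7 at 5 weeks, and its difference of -1.39 ± 0.57 (SE) missed the threshold (adjusted p = 0.0892). In each of these the 10-week pools 2 and 3 were close together, several times above pool 1 and below the lowest 5-week pool. A dimmer probe set of Myh4 differed by -2.78 ± 0.68 (SE), also with no overlap of ages. Of the dimmer probe sets of Myh1, the one that passed the filter differed by -1.93 and the other by -0.03. Myh2, Myh1 and Myh4 are neighbours on chromosome 11 and near-identical in sequence, and how far their probe sets detect one another was not tested.

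The light chains and the myosin-binding protein were also lowest in 10-week pool 1, and at 5 weeks pool 2 was lowest in Mylpf and Mybpc2 but not in Myl1. Mylpf, the fast regulatory light chain, gave 374, 3572 and 3409 at 10 weeks and 11270.1, 5526 and 12634 at 5 weeks and fell by 2.43 ± 0.74 (SE, adjusted p = 0.0317). Myl1, the fast essential light chain, gave 568, 6261 and 7141 at 10 weeks and 12563, 11983 and 11462 at 5 weeks, and its difference of -2.001 ± 0.78 (SE) missed the threshold (adjusted p = 0.0766). Its 5-week pools were the most even of all fast genes, and its spread lay almost wholly between 10-week pool 1 and the others. Mybpc2, the fast myosin-binding protein C, gave 133, 1311 and 1164 at 10 weeks and 5786, 2315 and 7506 at 5 weeks and fell by 2.87 ± 0.75 (SE, adjusted p = 0.0165). It kept its call without 5-week pool 1 (adjusted p = 0.0495), which the other 6 called fast genes did not (0.0547 to 0.107).

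Troponin is the calcium switch of the thin filament. Tnnc2, the fast calcium-binding subunit, gave 729.5, 7792 and 7168 at 10 weeks and 13664, 9740.5 and 12747 at 5 weeks, and its difference of -1.77 ± 0.75 (SE) missed the threshold (adjusted p = 0.0964). Tnni2, the fast inhibitory subunit, gave 517, 5158 and 4306 at 10 weeks and 11963, 5647 and 13449 at 5 weeks, and its difference of -2.07 ± 0.75 (SE) missed the threshold (adjusted p = 0.0587). Tnnt3, the fast subunit that binds tropomyosin, gave 407, 4080.3 and 3762 at 10 weeks and 10902, 4609 and 12248 at 5 weeks, and its difference of -2.17 ± 0.77 (SE) missed the threshold (adjusted p = 0.0558). So none of the fast troponin genes was called, though the ages did not overlap in any of them. Without 10-week pool 1 the differences were -0.67, -1.03 and -1.11, and those of Tnnc2 and Tnni2 then passed the test. With all pools, a dimmer probe set of Tnni2 that passed the filter differed by -2.16 ± 0.70 (SE). Another, which did not pass, differed by 0.16.

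Genes that move or buffer calcium in fast fibres were lower too. Casq1, calsequestrin, which stores calcium in the sarcoplasmic reticulum, gave 275, 1701 and 1639 at 10 weeks and 6023, 2726 and 7029 at 5 weeks and fell by 2.35 ± 0.63 (SE, adjusted p = 0.018). Pvalb, parvalbumin, a soluble calcium buffer, gave 326, 4249.6 and 3425 at 10 weeks and 11640.0, 6013 and 11539.6 at 5 weeks and fell by 2.42 ± 0.80 (SE, adjusted p = 0.0426). Atp2a1, the pump that returns calcium to the reticulum, gave 834, 6339 and 7526 at 10 weeks and 14460.5, 9517 and 14441 at 5 weeks, and its difference of -1.86 ± 0.69 (SE) missed the threshold (adjusted p = 0.0641). Atp2a1, Tnnc2, Acta1 and Ckm were the brightest genes of the list, with 5-week signals near the top of the arrays' range, and compression of such signals was not tested.

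At the Z-disc, Actn3, the alpha-actinin of fast fibres, gave 120.1, 1542 and 1392 at 10 weeks and 4904, 1969.5 and 8034 at 5 weeks and fell by 2.62 ± 0.84 (SE, adjusted p = 0.0384). Myoz1, a Z-disc protein that binds calcineurin, gave 793, 2314 and 2392 at 10 weeks and 4946, 3038 and 6904 at 5 weeks and fell by 1.499 ± 0.42 (SE, adjusted p = 0.0223). Without 10-week pool 1 the differences of the 7 called fast genes were -1.89 to -0.99, and 6 stayed called (Myh2 did not, adjusted p = 0.0594). Without 5-week pool 3 none of the 7 stayed called (adjusted p = 0.0605 to 0.124).

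Slow fibre genes mostly did not share the low values of 10-week pool 1, and their signals were dim. Of 7, 5 could be tested, 1 fell and 0 rose, where 19.7% of all genes fell and 16.1% rose. In all 5 the ages overlapped, where 26.3% of all genes had no overlap with 10 weeks lower and 24.0% with 10 weeks higher. The median difference was -0.56, with a range of -1.58 to 0.35. In 2 of the 5 the lowest 10-week signal was that of pool 1, and in all 7 the highest 5-week signal was that of pool 3. Without that pool the median of the slow genes was 0.04, so their direction rests on it.

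Mybpc1, the slow myosin-binding protein C, was the called gene and also the brightest. It gave 213, 715 and 805 at 10 weeks and 1755, 785 and 2789.9 at 5 weeks and fell by 1.58 ± 0.53 (SE, adjusted p = 0.0434). As in the fast genes, 10-week pool 1 was lowest, and the call was lost without 10-week pool 1 (difference -1.02, adjusted p = 0.116), 10-week pool 2 (0.0537), 5-week pool 1 (0.104) or 5-week pool 3 (0.14). Tnnt1, the slow troponin T, gave 62.0, 66.5 and 108 at 10 weeks and 355, 16.0 and 615 at 5 weeks, and its difference of -1.07 ± 0.80 (SE) missed the threshold (adjusted p = 0.329). Tnnc1, the troponin C of slow fibres and heart, gave 176, 121 and 236 at 10 weeks and 195, 141 and 661 at 5 weeks, and its difference of -0.56 ± 0.46 (SE) missed the threshold (adjusted p = 0.381). In both, 5-week pool 2 was near or below the 10-week pools while 5-week pool 3 was far above them.

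The light chains shared with the heart ran differently again. Myl2, the slow regulatory light chain, gave 185, 122 and 303 at 10 weeks and 104, 66.4 and 868 at 5 weeks, and its difference of -0.04 ± 0.72 (SE) missed the threshold (adjusted p = 0.975). Myl3, the slow essential light chain, gave 392, 286 and 291 at 10 weeks and 186, 201 and 381 at 5 weeks, and its difference of 0.35 ± 0.25 (SE) missed the threshold (adjusted p = 0.314). Myl3 was the 1 member tested with a value above 0, and 10-week pool 1 was its highest pool. Without 5-week pool 3 its difference was 0.64 and passed the test (adjusted p = 0.0354), the 1 member called higher under any alternative run. Its other probe sets, both too dim to be tested, differed by -0.21 and -0.78.

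The dimmest members lay just outside the filter. Tnni1, the slow troponin I, gave 25.5, 27.1 and 132 at 10 weeks and 181, 30.7 and 481 at 5 weeks. Myh7, the slow heavy chain, gave 63.8, 23.6 and 115 at 10 weeks and 83.5, 12.4 and 691 at 5 weeks. Both had one high pool, 5-week pool 3. Their mean log2 levels over the 6 pools were 6.97 and 6.90, the filter kept levels above 7.07, and Tnnt1 was the member closest inside at 7.30.

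Fast and slow genes were then set against each other within each pool. The median log2 level of the 14 fast genes minus that of the 7 slow genes was 1.02, 4.74 and 3.69 at 10 weeks, against 5.67, 5.69 and 4.06 at 5 weeks. Probe sets differ in brightness for reasons of their own, so the distance itself cannot be read. Its change between pools is limited as well, since log2(signal + 32) understates changes of the dim slow genes. Their median level was 7.70, 7.26 and 8.07 at 10 weeks, where array medians on that scale were 7.56 to 7.63. How much of the change this accounts for was not tested. The mean distance over 10-week pools was 3.15 ± 1.91 (SD, n = 3), and over 5-week pools 5.14 ± 0.94 (SD, n = 3). The distance was smallest in 10-week pool 1, and 10-week pool 2 lay within the range of the 5-week pools. A second measure used the age difference of each gene tested, and so only 5 slow genes. The median of these differences over the 14 fast genes minus that over the 5 slow genes was -1.58. It became -0.63 without 10-week pool 1.

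In 7 pairs a fast and a slow gene encode versions of the same protein, and the log2 difference fast minus slow was taken in each pool. The SE of its change with age came from the variances of the 3 pools of each age, not from the limma fit. An exact two-sided permutation test over 3 against 3 pools cannot give a p under 0.1. In all 7 pairs the fast minus slow difference was lower on average at 10 weeks, with changes of -2.40 to -0.87. In all 7 the lowest value was that of 10-week pool 1, so the pairs do not bear on this separately. In the troponin pairs and in Myh4 minus Myh7, 10-week pools 2 and 3 lay within the range of the 5-week pools. For Mybpc2 minus Mybpc1 the values were -0.57, 0.85 and 0.52 at 10 weeks and 1.70, 1.52 and 1.42 at 5 weeks, a change of -1.28 ± 0.44 (SE) with no overlap (exact permutation p = 0.1). Myl1 minus Myl3 was 0.50, 4.31 and 4.47 at 10 weeks and 5.86, 5.69 and 4.80 at 5 weeks, a change of -2.35 ± 1.34 (SE), again with no overlap (exact permutation p = 0.1). These 2 pairs reached the smallest p that the design allows, and neither passed a threshold of 0.05. Mylpf minus Myl2 gave a change of -2.40 ± 1.33 (SE) (exact p = 0.2). Myh4 minus Myh7 gave a change of -2.19 ± 1.85 (SE) (exact p = 0.3). Tnnc2 minus Tnnc1 gave -1.21 ± 1.27 (SE) (exact p = 0.5). Tnnt3 minus Tnnt1 gave -1.10 ± 1.20 (SE) (exact p = 0.5). Tnni2 minus Tnni1 gave -0.87 ± 1.06 (SE) (exact p = 0.5). Tnni1 and Myh7 were too dim to be tested as single genes, and the log2 scale used understates changes of dim genes. Adjusted over the 7 pairs, p was 0.35 to 0.5. The troponin changes were smaller than or near their SE, so they do not differ from 0 beyond the spread of pools.

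**Figure D2:**
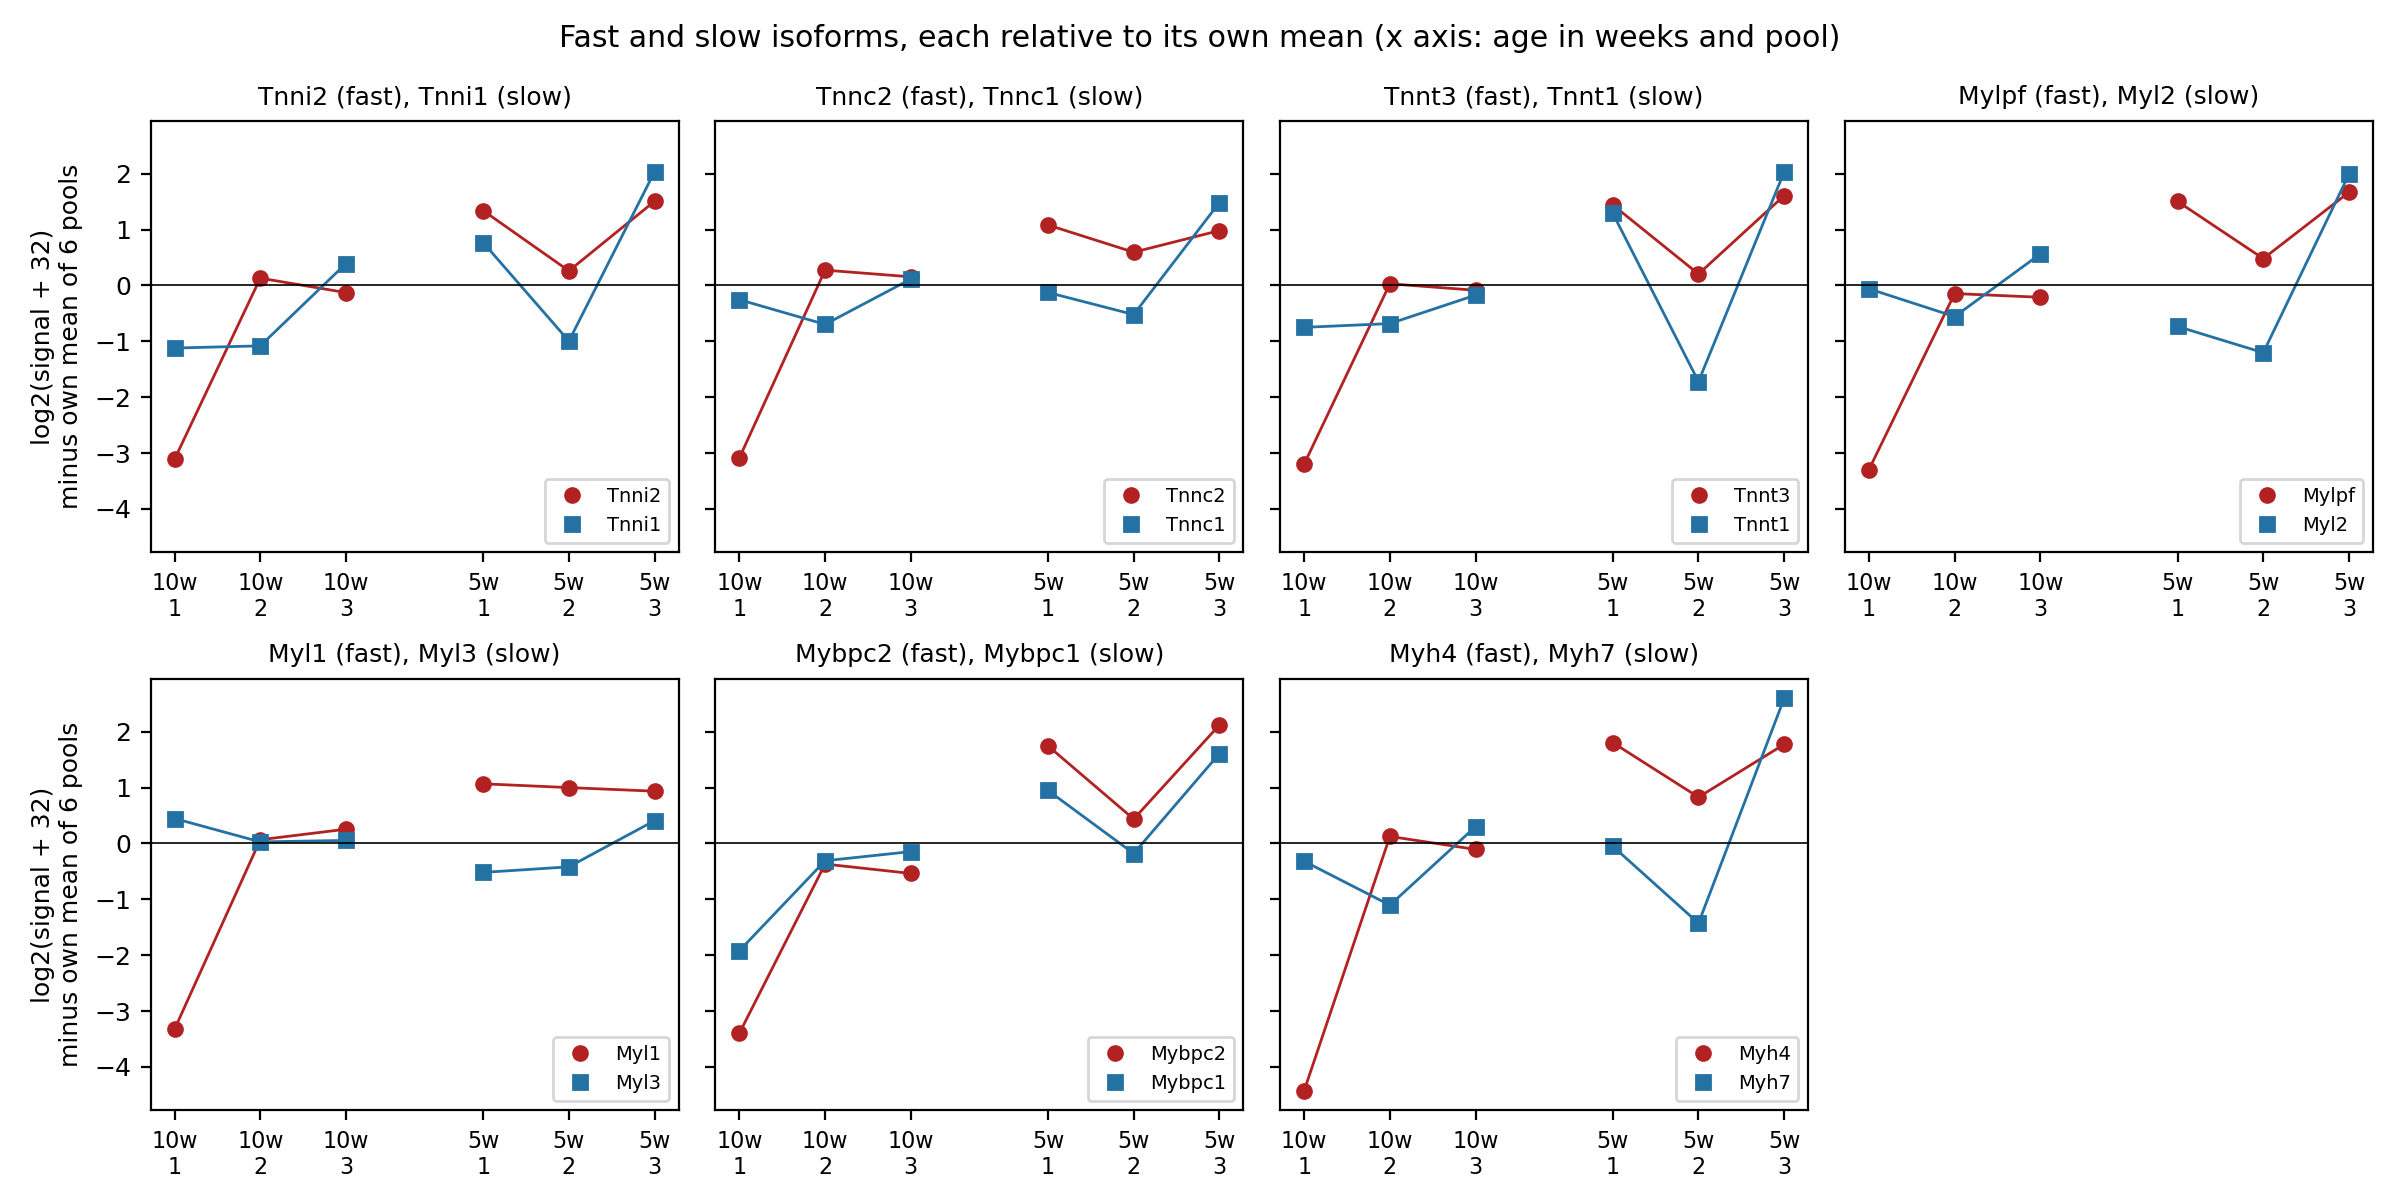
The 7 pairs of fast (circles) and slow (squares) genes, each gene as log2(signal + 32) minus its own mean over the 6 pools, against age in weeks (w) and pool; lines only join values within an age. In all 7 pairs the fast gene lies further below its own mean in 10-week pool 1 than its slow partner does, with the smallest gap for Mybpc2 and Mybpc1.

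Genes of sarcomere structure were called lower in 8 of 12 cases and higher in 0, and all 12 differences lay below 0. Their median difference was -2.21, with a range of -2.73 to -0.76, and in 9 of the 12 the ages did not overlap. In all 12 the lowest of the 6 signals was that of 10-week pool 1. At the Z-disc, where thin filaments are anchored, Actn2, the alpha-actinin that all fibres and the heart use, gave 109, 502 and 592 at 10 weeks and 2070.0, 693 and 3302 at 5 weeks and fell by 2.25 ± 0.64 (SE, adjusted p = 0.0236). Tcap, telethonin, which caps titin at the Z-disc, gave 405, 1897 and 2464 at 10 weeks and 5581, 2605 and 5950.2 at 5 weeks and fell by 1.80 ± 0.59 (SE, adjusted p = 0.0416). Myot, myotilin, which crosslinks actin there, gave 138, 1078 and 1356 at 10 weeks and 3606, 1503 and 5340.1 at 5 weeks and fell by 2.28 ± 0.74 (SE, adjusted p = 0.0405). In each of the 3 the highest signal was that of 5-week pool 3. Ldb3, a PDZ and LIM domain protein that binds alpha-actinin, gave 626, 1065 and 1028 at 10 weeks and 1901, 739.7 and 2459 at 5 weeks, and its difference of -0.76 ± 0.39 (SE) missed the threshold (adjusted p = 0.164). The probe sets of Ldb3 disagreed, since a dimmer one differed by -2.45 and another by 0.27.

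Intermediate filaments tie neighbouring sarcomeres together. Des, desmin, gave 123, 577 and 873 at 10 weeks and 3138, 1413 and 4325 at 5 weeks and fell by 2.62 ± 0.61 (SE, adjusted p = 0.0103), and a dimmer probe set of the gene differed by -0.40. Smpx, a small protein of striated muscle, gave 86.9, 478 and 609 at 10 weeks and 2914, 756 and 3798 at 5 weeks and fell by 2.61 ± 0.70 (SE, adjusted p = 0.0188). Mybph, a relative of the myosin-binding proteins C, gave 6.6, 97.5 and 70.8 at 10 weeks and 660.2, 269 and 695 at 5 weeks and fell by 2.73 ± 0.48 (SE, adjusted p = 0.00246). Mybph was the member with the smallest adjusted p and kept its call under the 15 alternatives in which it was tested (leaving out the lowest 60% of probe sets removed it), but at its dim 10-week signals the size depends on the offset (-3.72 with an offset of 1 and -1.99 with 100).

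The M-band links thick filaments at the middle of the sarcomere. Myom1, myomesin, gave 136, 415 and 412 at 10 weeks and 1749, 374 and 2599 at 5 weeks and fell by 1.94 ± 0.64 (SE, adjusted p = 0.043). In Myom1 5-week pool 2 lay among the 10-week pools, so the ages overlapped. Myom2, its relative in fast fibres, gave 57.9, 849.9 and 689.5 at 10 weeks and 2904, 950.2 and 4298 at 5 weeks and fell by 2.59 ± 0.83 (SE, adjusted p = 0.0386).

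The filament genes proper were bright and uncalled. Acta1, skeletal muscle actin and the brightest member, gave 2659, 12299 and 11862 at 10 weeks and 16265, 12738 and 14448 at 5 weeks, and its difference of -0.98 ± 0.50 (SE) missed the threshold (adjusted p = 0.157). Ttn, titin, the giant spring of the sarcomere, gave 259, 3818 and 3043 at 10 weeks and 7920.4, 3538 and 8617 at 5 weeks, and its difference of -2.05 ± 0.85 (SE) missed the threshold (adjusted p = 0.0903). Dimmer probe sets of Ttn that passed the filter differed by -2.39, -0.35, -1.14 and -1.86, and another that did not by -0.08. Neb, nebulin, which runs along the thin filament, gave 108, 1404 and 1398 at 10 weeks and 3629.8, 1564 and 4519 at 5 weeks, and its difference of -2.18 ± 0.82 (SE) missed the threshold (adjusted p = 0.0666). Acta1 in 10-week pools 2 and 3 came within a small margin of 5-week pool 2, and its difference without 10-week pool 1 was -0.25. Of the 8 calls, 3 held without 10-week pool 1 (differences of the 8 from -2.21 to -1.02), 2 held without 5-week pool 1 and 2 without 5-week pool 3. The call of Myom1 was also lost without 10-week pool 2 (adjusted p = 0.0609) and 10-week pool 3 (0.0616).

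Both genes of calcium release fell. Ryr1, the channel that releases calcium from the reticulum, gave 139, 1189 and 1057 at 10 weeks and 3984, 1445 and 4969 at 5 weeks and fell by 2.34 ± 0.72 (SE, adjusted p = 0.0325). Trdn, triadin, which couples that channel to calsequestrin, gave 70.8, 416 and 379 at 10 weeks and 1295, 534 and 913 at 5 weeks and fell by 1.74 ± 0.53 (SE, adjusted p = 0.0316). Neither gene's ages overlapped, and the other probe set of Ryr1 differed by -0.78. Trdn had 5 dimmer probe sets, of which the 2 that passed the filter differed by -3.37 and -1.22 and the 3 that did not by -1.23, -0.54 and -0.12. Leaving out 5-week pool 1 ended both calls (adjusted p = 0.0895 to 0.0994), as did leaving out 5-week pool 3 (0.0829 to 0.107), and the differences without 10-week pool 1 were -1.42 and -1.06.

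Genes of energy supply were called lower in 4 of 6 cases and higher in 0, and all 6 differences lay below 0. Their median difference was -2.17, and the ages did not overlap in 5. Pgam2, the muscle phosphoglycerate mutase of glycolysis, had the largest difference of all members. It gave 17.9, 644 and 777 at 10 weeks and 3739, 1126 and 5577 at 5 weeks and fell by 3.27 ± 0.99 (SE, adjusted p = 0.0303). Its signal in 10-week pool 1 was near the floor of the array while the other 10-week pools were far above it, and the difference was -3.76 with an offset of 1 and -2.81 with 100. Eno3, the muscle enolase, gave 480.2, 3253 and 3368 at 10 weeks and 9033, 4732 and 10688 at 5 weeks and fell by 2.11 ± 0.66 (SE, adjusted p = 0.0335). Pygm, the muscle glycogen phosphorylase, gave 169, 1461 and 1506 at 10 weeks and 4964, 2035 and 6908 at 5 weeks and fell by 2.43 ± 0.74 (SE, adjusted p = 0.0322). These 3 glycolytic genes had the same order of pools at 5 weeks, with pool 3 highest and pool 2 lowest.

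Creatine kinases rebuild ATP from phosphocreatine. Ckmt2, the mitochondrial form of muscle, gave 142, 712 and 634 at 10 weeks and 2284, 849 and 4245 at 5 weeks and fell by 2.22 ± 0.64 (SE, adjusted p = 0.0253). Ckm, the cytosolic form, gave 688, 8845 and 7764 at 10 weeks and 16256, 10567 and 14389 at 5 weeks, and its difference of -1.88 ± 0.80 (SE) missed the threshold (adjusted p = 0.0995). A dimmer probe set of Ckm differed by -0.88 ± 0.30 (SE), with overlapping ages. Mb, myoglobin, which stores oxygen and is richest in oxidative fibres, gave 443, 1710.4 and 1738 at 10 weeks and 3656, 1359 and 6357 at 5 weeks, and its difference of -1.49 ± 0.61 (SE) missed the threshold (adjusted p = 0.0866). In Mb 5-week pool 2 lay below 10-week pools 2 and 3, so the ages overlapped. The other probe set of Mb, too dim to be tested, differed by -0.03. Leaving out 5-week pool 1 ended all 4 calls of the energy genes (adjusted p = 0.0671 to 0.0863), as did leaving out 5-week pool 3 (0.0864 to 0.107), and the call of Ckmt2 also ended without 10-week pool 1 (0.0657). Without 10-week pool 1 the 4 differences were -1.97 to -1.21.

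**Figure D3:**
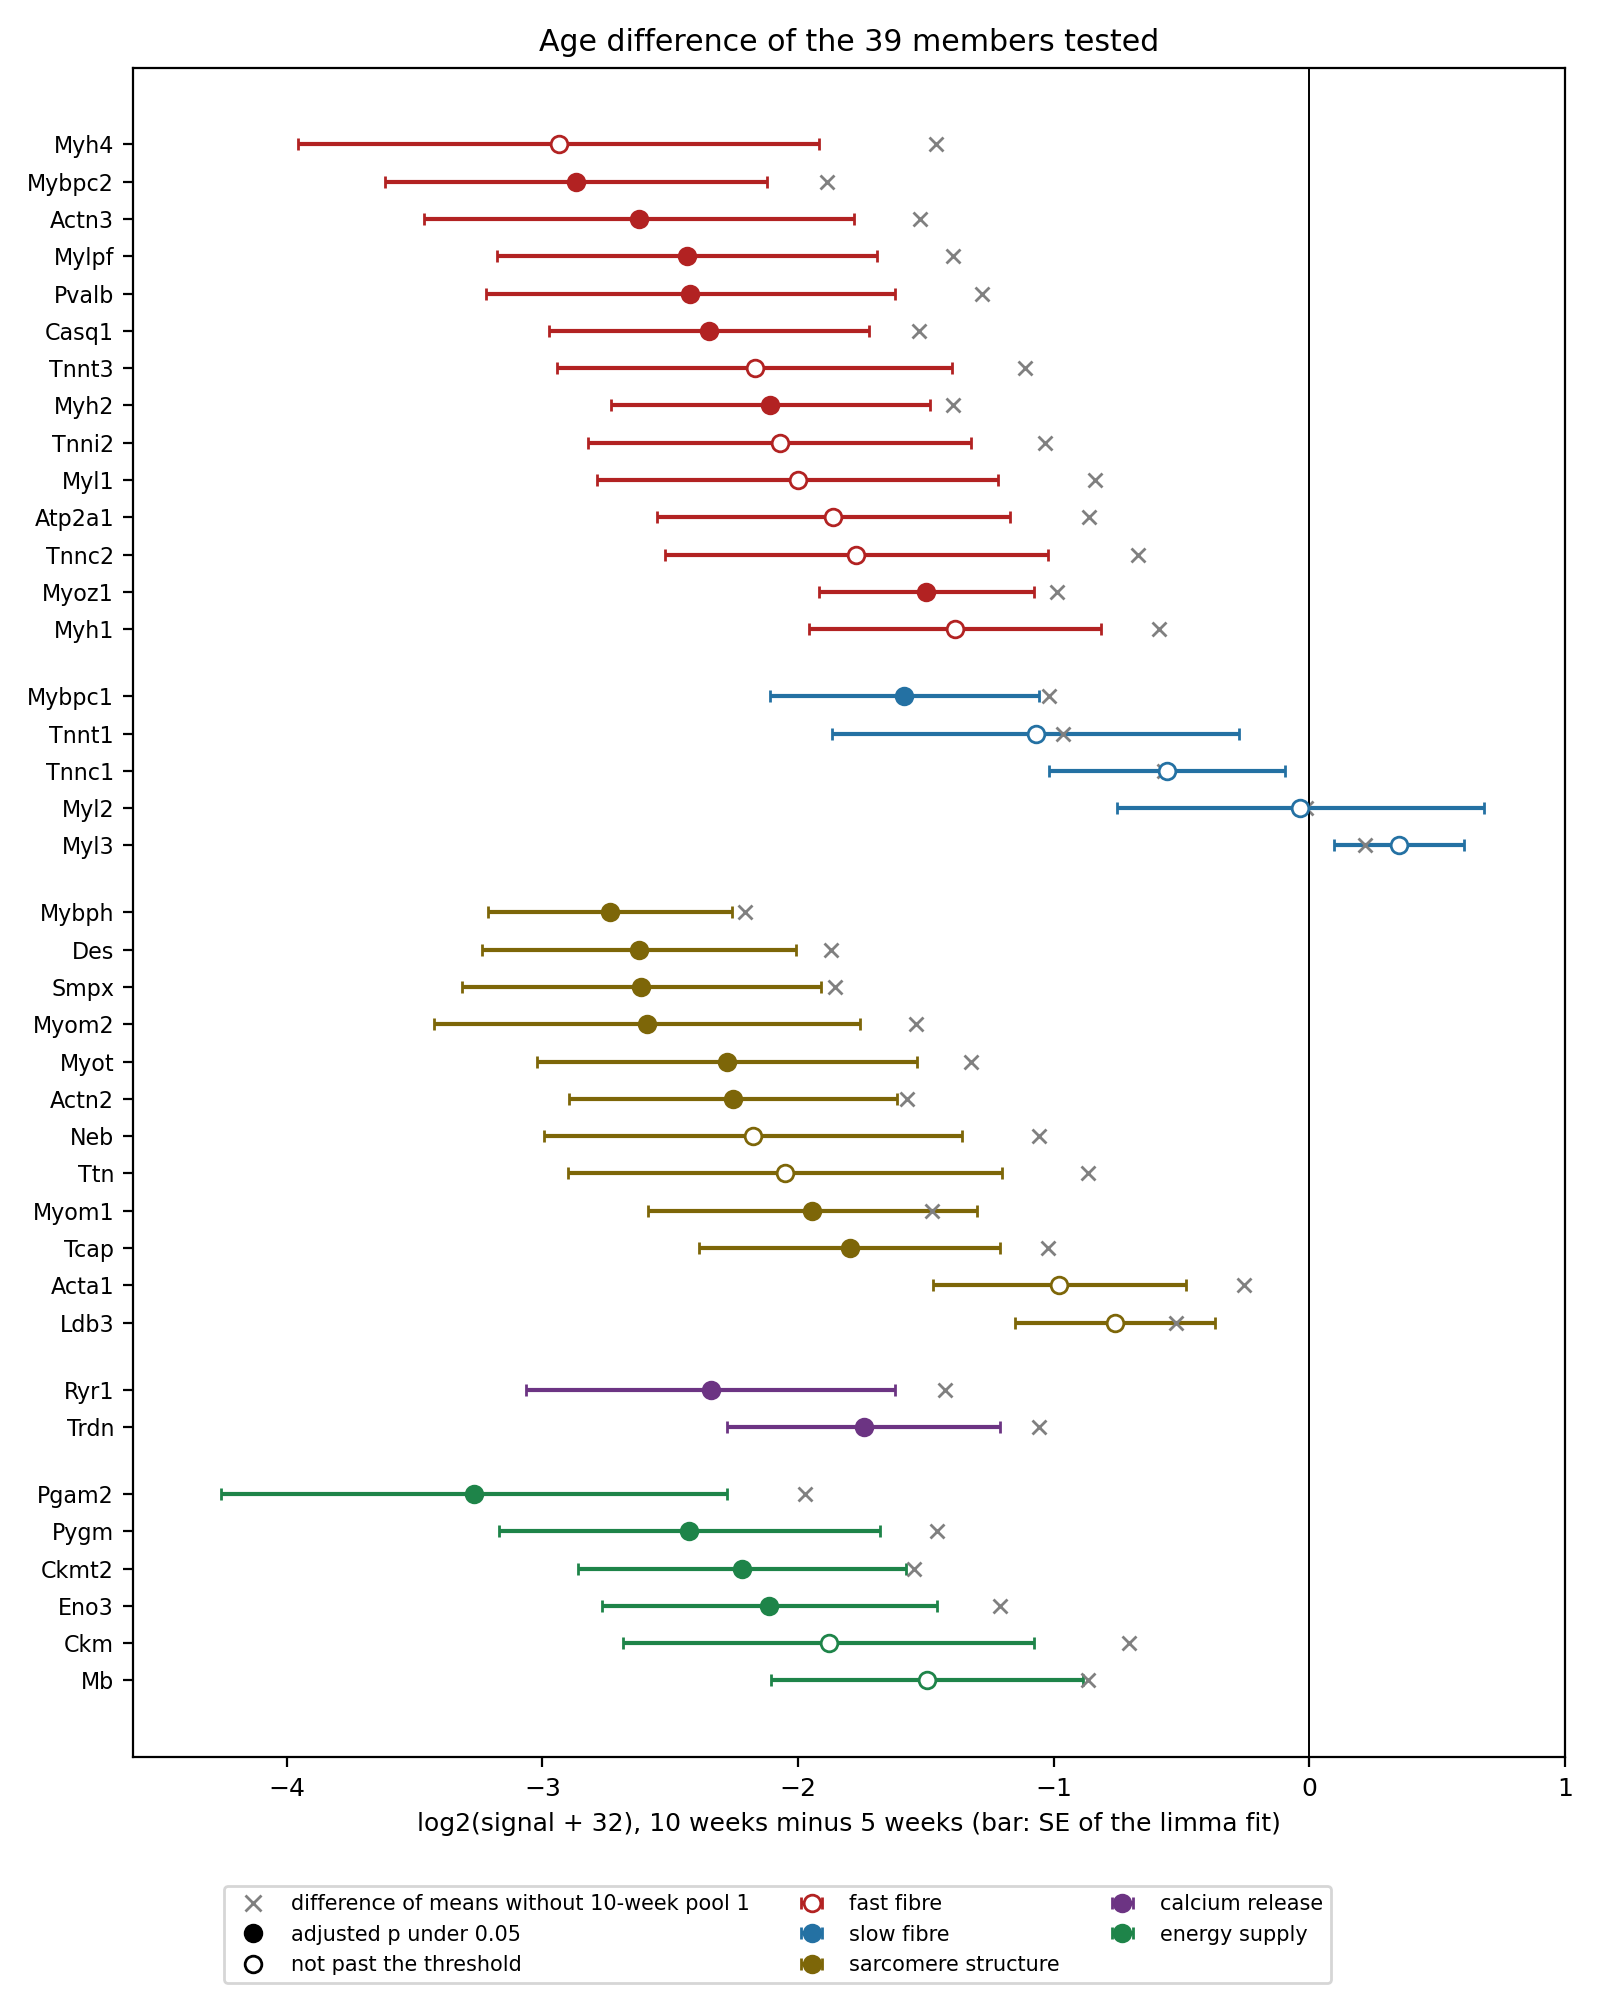
Log2 difference, 10 weeks minus 5 weeks, of the 39 members tested, with the SE of the limma fit as bars; filled points passed an adjusted p of 0.05, open points did not, and crosses give the difference of means without 10-week pool 1. All points but that of Myl3 lie below 0, and for all but Tnnc1 the cross lies nearer to 0 than the point.

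Most members shared an order of pools that the list did not use. For each gene the Pearson correlation over the 6 pools was taken between its log2 level and the mean of the other members, as a description in which 1 pool weighs heavily. It was above 0.95 for 28 of the 41. Pygm, Actn3, Pgam2 and Myot had the highest values, 0.999 or above. Among the slow genes it was -0.40 for Myl3, 0.27 for Myl2, 0.48 for Myh7, 0.51 for Tnnc1, 0.65 for Tnnt1, 0.76 for Tnni1 and 0.99 for Mybpc1. Of 12963 other genes tested, 115 (0.887%) had a correlation above 0.95 with the mean of the members that passed the filter.

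The 12 genes outside the list whose pattern was most like it had correlations of 0.9889 to 0.9959. Mypn, myopalladin of the Z-disc, was the closest and gave 16.9, 247 and 258 at 10 weeks and 1008, 333 and 1577 at 5 weeks, where it fell by 2.42 ± 0.72 (SE, adjusted p = 0.0283). Next was Ampd1, the muscle AMP deaminase, with 12.8, 641 and 642 at 10 weeks and 2021, 662 and 3207 at 5 weeks, and its difference of -2.61 ± 0.99 (SE) missed the threshold (adjusted p = 0.0681). Cmya5, a large desmin-binding protein, gave 303, 1263 and 1205 at 10 weeks and 3384, 1399 and 4436 at 5 weeks and fell by 1.78 ± 0.55 (SE, adjusted p = 0.0329). All of these have a known place in muscle. Frzb, a secreted inhibitor of Wnt ligands, gave 6.7, 211 and 196 at 10 weeks and 788, 379.9 and 1154 at 5 weeks and fell by 2.52 ± 0.67 (SE, adjusted p = 0.0178). Adck1, a mitochondrial kinase-like gene, gave 438, 529.7 and 528 at 10 weeks and 576, 527 and 585 at 5 weeks, and its difference of -0.17 ± 0.13 (SE) missed the threshold (adjusted p = 0.352). Adck1 thus varied with the members at a small fraction of the size, though its 5-week pool 2 lay just below 10-week pools 2 and 3. The others were the regulator Myf6 (-1.59), the tropomyosin gene Tpm1 (-1.38), the thin filament gene Lmod3 (-1.99), the muscle gene Apobec2 (-2.39), Sh3bgr (-2.49), the splicing factor gene Rbfox1 (-2.28) and the LIM domain gene Fhl3 (-1.66, not called, adjusted p = 0.0552), given as log2 differences. Mypn, Ampd1, Cmya5, Tpm1, Lmod3 and Apobec2 also stood on the list of other muscle fibre genes used below, and Myf6 on that of lineage regulators. The members' mean is itself lower at 10 weeks, so the choice of these 12 genes fixed their direction.

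Among muscle fibre genes that are not members, too, more fell than rose. Of 79 names 72 were on the array, 64 were tested, 34 fell and 2 rose, where 19.7% of all genes fell and 16.1% rose. The median difference was -1.37. The ages did not overlap, with 10 weeks lower, in 29, against 26.3% of all genes. They did not overlap, with 10 weeks higher, in 3, against 24.0%. Itgb1bp2, melusin, which binds integrin in striated muscle, had the largest fall. It gave 43.8, 239 and 189.6 at 10 weeks and 1229, 440.0 and 1910.5 at 5 weeks and fell by 2.66 ± 0.57 (SE, adjusted p = 0.00676). Among called genes of the junction between surface membrane and reticulum, the log2 differences were -1.65 for Jph1, -1.42 for Jph2, -1.09 for Jsrp1, -1.70 for Stac3, -2.08 for Srl, -1.53 for Hrc and -2.42 for Sypl2. Junctophilins hold those membranes together and Stac3 is needed for their signal. For the filaments and the Z-disc they were -2.42 for Mypn, -2.26 for Myoz3, -2.19 for Synpo2l, -1.54 for Nrap, -1.96 for Tmod4, -1.99 for Lmod3, -1.38 for Tpm1, -1.78 for Cmya5, -1.37 for Fhl1, -1.86 for Trim54 and -1.61 for Klhl40. Tropomodulin (Tmod4) and leiomodin (Lmod3) cap or seed thin filaments.

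In the same list, called genes of glycogen and sugar use were the phosphorylase kinase subunits Phka1 (-1.28) and Phkg1 (-1.74) and the muscle phosphofructokinase Pfkm (-1.03). Kinases that respond to calcium were Camk2a (-1.47) and Mylk2 (-1.04). Genes of the surface membrane were Sgca (-2.18), alpha-sarcoglycan, Dysf (-0.82), dysferlin, which reseals torn membrane, and Cavin4 (-1.62) of caveolae. The other calls were -2.39 for Apobec2, -2.01 for Eef1a2, -0.85 for Fsd2, -1.89 for Hhatl, -1.82 for Hjv, -1.67 for Mlip and -1.30 for Smyd1. Eef1a2 is the elongation factor form of muscle and nerve, and Smyd1 is a methyltransferase needed for myosin assembly.

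By the test, 2 genes of that list rose, Ucp3 and Chrnb1. Ucp3, a mitochondrial carrier of muscle and brown fat, gave 1895, 1567 and 2188 at 10 weeks and 616, 771 and 723 at 5 weeks and rose by 1.37 ± 0.15 (SE, adjusted p = 0.000219). Chrnb1, a subunit of the acetylcholine receptor, gave 438, 558 and 479 at 10 weeks and 244, 286 and 311 at 5 weeks and rose by 0.74 ± 0.15 (SE, adjusted p = 0.00542). Neither had the order of pools that the members had. In Fbxo32 the 10-week pools also lay above the 5-week pools, at 1601, 1890 and 1279 against 1157, 428 and 1202. The difference of Fbxo32, 0.87 ± 0.34 (SE), missed the threshold (adjusted p = 0.0789). The count of 34 was 19 without 10-week pool 1, 17 without 5-week pool 1 and 13 without 5-week pool 3. Sln, sarcolipin, a regulator of the calcium pump, was too dim over all pools to be tested and gave 5.3, 5.6 and 5.4 at 10 weeks and 359, 19.7 and 755 at 5 weeks. It is named here because its values stood out.

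Regulators of the muscle lineage were mostly dim. Of 8 tested, 3 fell and 0 rose, where 19.7% of all genes fell and 16.1% rose. Mef2a, a MEF2 factor found in many tissues, was the brightest, gave 1336, 1539 and 1433 at 10 weeks and 1726, 1972 and 1841 at 5 weeks and fell by 0.36 ± 0.10 (SE, adjusted p = 0.0273). Mef2d, another, gave 900.2, 1577 and 867 at 10 weeks and 1113, 746 and 1560.1 at 5 weeks, and its difference of -0.02 ± 0.29 (SE) missed the threshold (adjusted p = 0.957). Mef2c gave 428, 603 and 662 at 10 weeks and 1689, 1126 and 2018 at 5 weeks and fell by 1.44 ± 0.23 (SE, adjusted p = 0.00144), with no overlap of ages. Myf6, the member of the MyoD family made by mature fibres, gave 25.6, 130.0 and 149.8 at 10 weeks and 378, 209 and 438 at 5 weeks and fell by 1.59 ± 0.43 (SE, adjusted p = 0.0192). The call of Mef2a was lost without 10-week pool 1, 10-week pool 3, 5-week pool 2 or 5-week pool 3, and that of Myf6 without 5-week pool 1 or 5-week pool 3. Pax7, the marker of satellite cells, was not tested at 86.5, 86.9 and 108 at 10 weeks and 58.5, 55.8 and 74.8 at 5 weeks.

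Few genes of developing fibres and of the heart were bright enough to be tested. Mybph, which stood on the developmental list too, is counted with the members and fell. Of the 3 other developmental genes tested (Actc1, Myl4 and Ncam1), 0 fell and 0 rose by limma with adjustment over all genes, and at an unadjusted p under 0.05 Actc1 alone was lower. In all 3 the lowest of the 6 signals was that of 10-week pool 1 and the lowest at 5 weeks that of pool 2, as in most members, with differences of -0.69 to -0.40. The brightest were Actc1, cardiac actin, with 144, 253 and 212 at 10 weeks and 324, 224 and 536 at 5 weeks, and Myl4, the embryonic light chain, with 168, 262 and 234 at 10 weeks and 412, 200.1 and 316 at 5 weeks. Of 4 heart genes tested, 0 fell and 0 rose, also at an unadjusted p under 0.05. By the adjusted test 19.7% of all genes fell and 16.1% rose, so counts of 0 among 3 or 4 genes say little. Mybpc3, the cardiac myosin-binding protein C, gave 244, 329 and 288 at 10 weeks and 211, 238 and 199.6 at 5 weeks. Pln, phospholamban, gave 115, 183 and 150.3 at 10 weeks and 157, 184 and 141 at 5 weeks. Among heart genes too dim to be tested, Myl7 and Tnni3 had the lowest mean levels, with signals of 8.3 to 14.1 and 10.0 to 51.2. They are named beyond the 2 brightest, and other untested heart genes were brighter. Tnnt2 gave 31.6 to 133.6 and Gata4 46.5 to 113.5.

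Markers of other tissues were followed beside the fibre genes, since whole gland holds several of them, and their part in the results above was not tested. Their counts stand beside 19.7% of all genes called lower and 16.1% called higher. Smooth muscle and myoepithelial genes fell in 1 of 11 cases (Oxtr) and rose in 5, and their list mean of log2 levels was 10.83 to 10.86 at 10 weeks and 10.35 to 10.75 at 5 weeks. Acta2, smooth muscle actin, gave 13342, 12010.4 and 13819 at 10 weeks and 10616, 9969 and 10383 at 5 weeks, and Tagln, transgelin, gave 4544, 3799 and 4146 at 10 weeks and 4087, 3073 and 3591 at 5 weeks. None of these was far below the others in 10-week pool 1. Of 11 genes of mammary epithelium 7 rose and 1 (Krt7) fell, with Csn1s1, a casein, at 18808, 16677 and 18547 at 10 weeks and 16266, 16495 and 12877 at 5 weeks.

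Of 10 brown fat genes 6 fell and 1 rose, where 19.7% of all genes fell and 16.1% rose. Their list mean was 9.60, 10.16 and 10.54 at 10 weeks, against 10.44, 10.97 and 10.53 at 5 weeks, so that 10-week pool 1 was lowest, as for the fibre genes, while 5-week pool 2 was highest, unlike them. The brightest were Fabp3, a fatty acid binding protein, with 19749, 16969.8 and 19457 at 10 weeks and 7315, 5066 and 3136 at 5 weeks, and Cidea, a lipid droplet gene, with 9711, 5929 and 9002 at 10 weeks and 4754, 8072 and 5028 at 5 weeks. These were the 2 of the 10 that were higher on average at 10 weeks. The 6 that fell, named after their values were seen, were Ucp1 (-1.34), Cox7a1 (-1.39), Cox8b (-1.26), Elovl3 (-1.07), Ppargc1a (-0.59) and Prdm16 (-1.09). Ucp1, the uncoupling protein of brown fat, gave 1772, 4356 and 7404 at 10 weeks and 8049, 13558 and 8627 at 5 weeks. White fat genes fell in 3 of 8 cases (Cidec, Pparg and Lep) and rose in 0, and the brightest, Car3 and Fabp4, gave 16009.5, 16642 and 18455 at 10 weeks and 17962, 19328 and 15100.5 at 5 weeks, and 15554, 14882 and 18533 at 10 weeks and 17185, 19079 and 14340.0 at 5 weeks. Of 4 nerve and Schwann cell genes 3 fell and 1 rose, the brightest being Pmp22, a myelin protein that fell by 1.48, and Sox10, which rose by 1.62. Of 4 skin genes 1 fell and 0 rose, the brightest being Krt10 (-0.27, not called) and Sprr1a, which fell by 1.63. Beside the shares of all genes, counts among 4 genes say little.

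**Figure D4:**
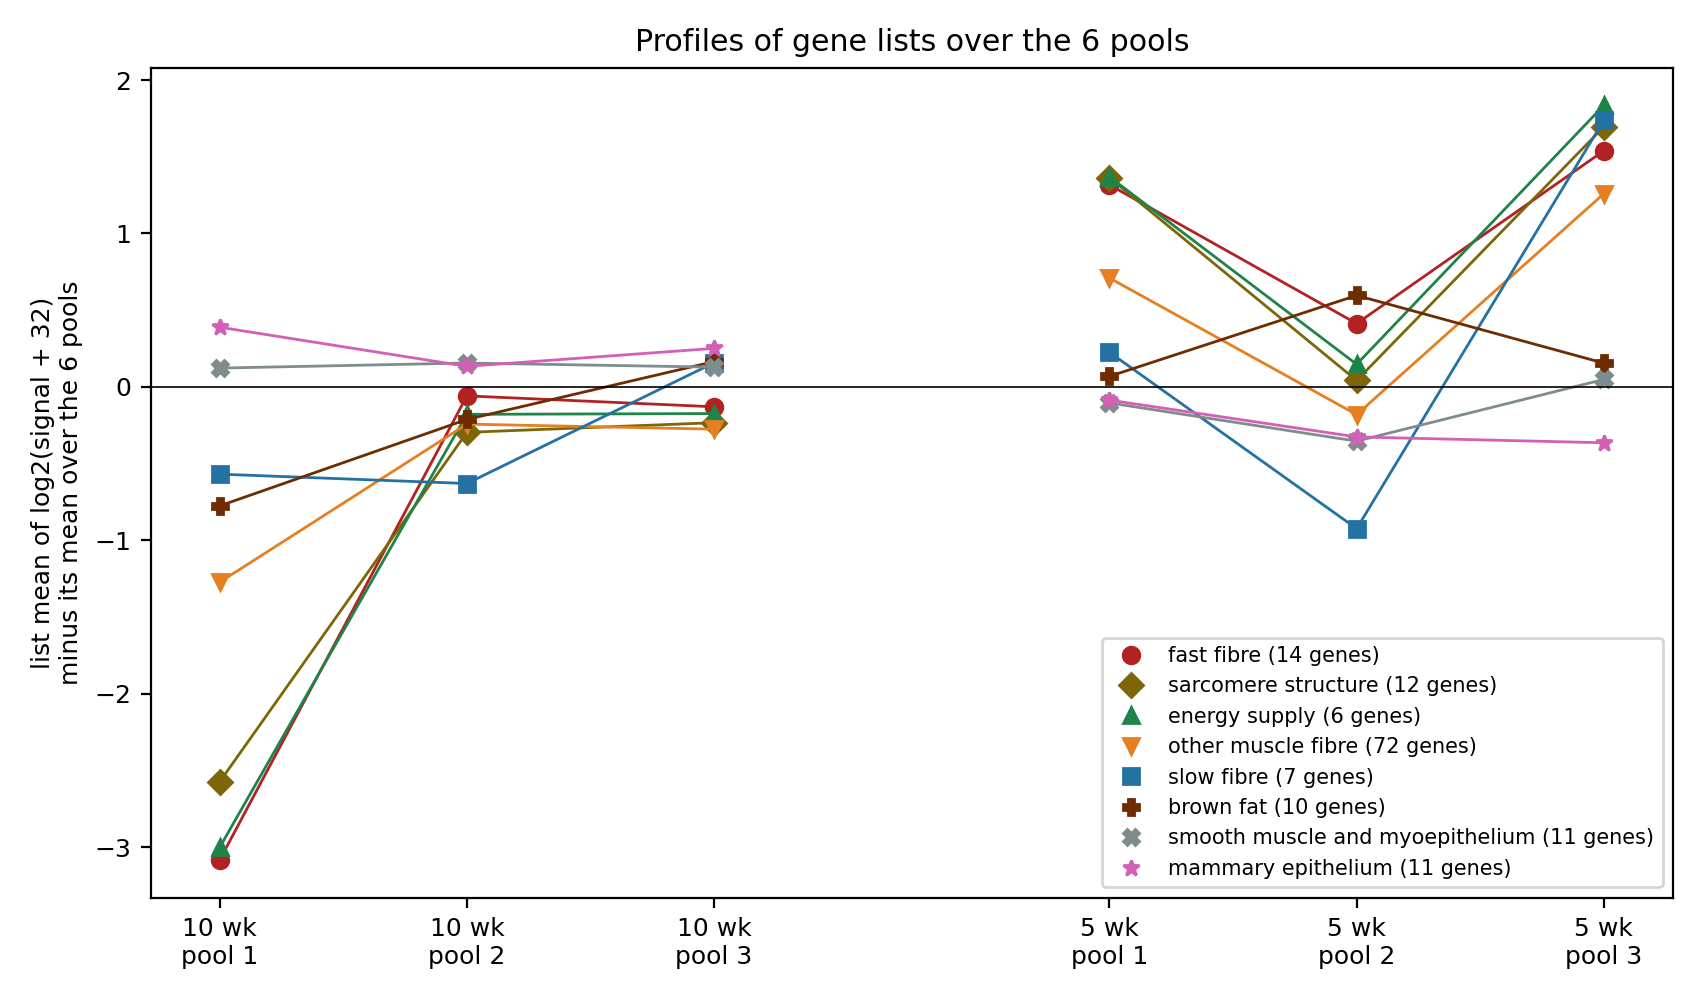
Mean log2(signal + 32) of each gene list in each pool, minus the list's own mean over the 6 pools, on a linear axis; lines only join pools of 1 age. Fast, sarcomere structure and energy genes are far below their mean in 10-week pool 1, and slow genes are highest in 5-week pool 3. Brown fat genes are also lowest in 10-week pool 1 but highest in 5-week pool 2, and myoepithelial and mammary epithelial genes are not lowest in 10-week pool 1.

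The number of members called depended on how the variance was modelled and on single pools. It was 22 with an offset of 1, 23 with 100, 22 with quantile normalization and 22 with array weights. It was 19 when p-values were adjusted over all 27022 probe sets in place of genes, 16 with the probe sets of a gene averaged, 11 without a variance trend, 9 without a filter on dim probe sets and 1 (Mybph) with a robust variance. Leaving out a pool gave 2 to 26. The count of members called higher was 0 throughout, except 1 (Myl3) without 5-week pool 3.

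**Figure D5:**
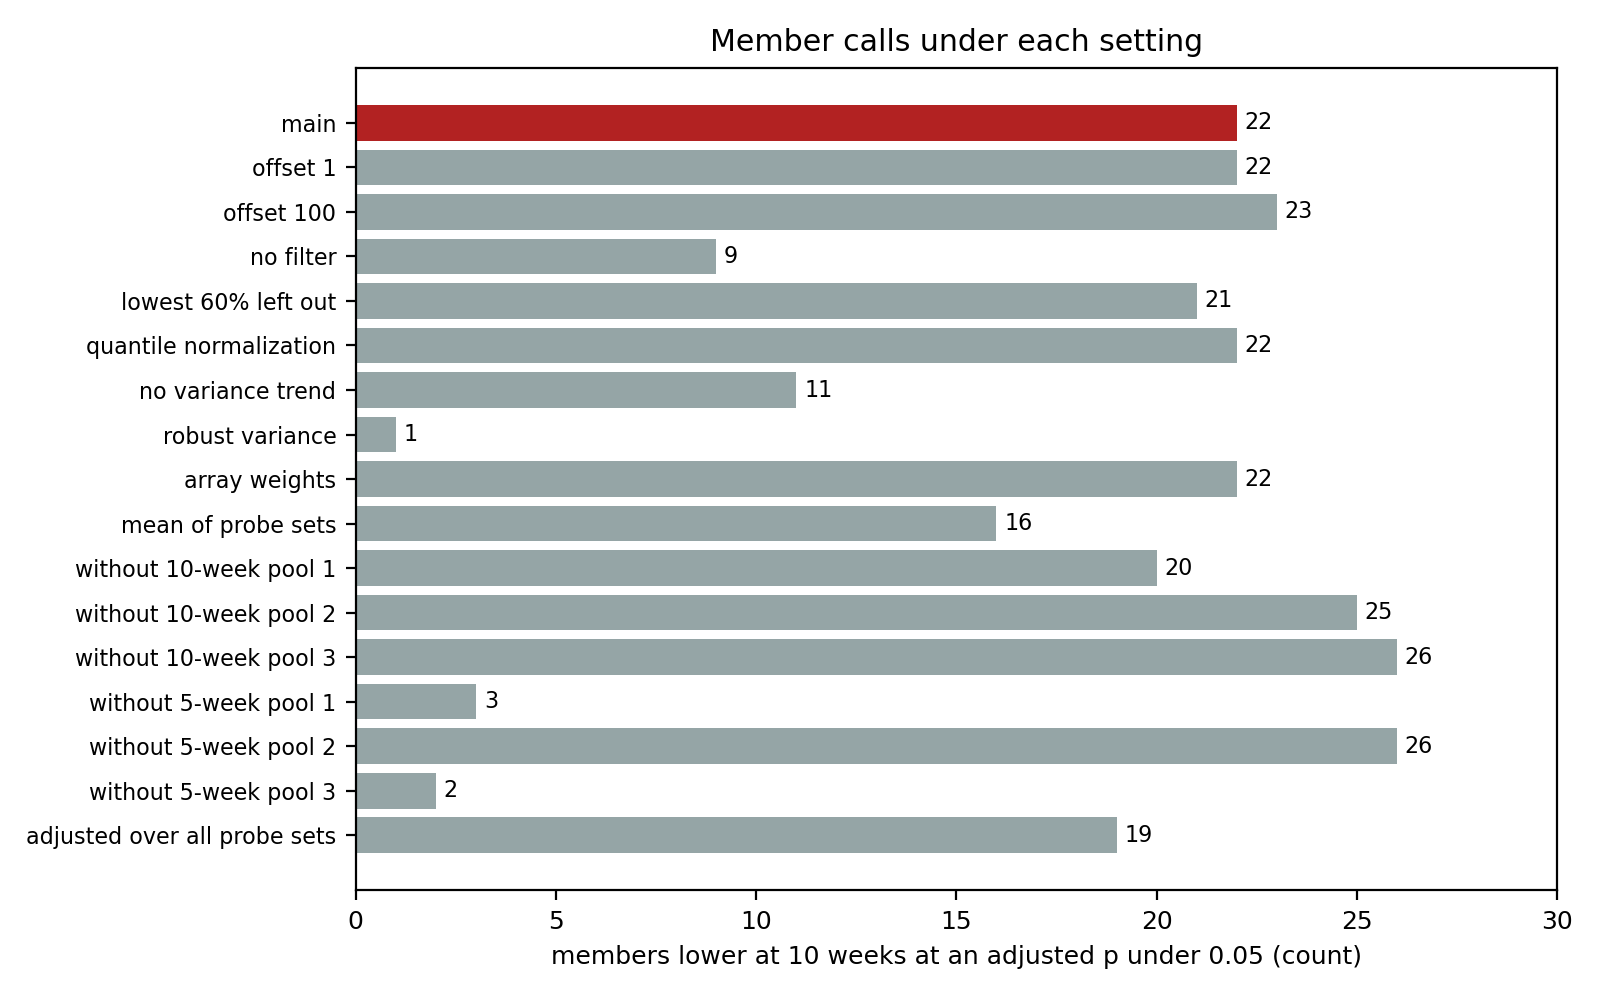
Number of members lower at 10 weeks at an adjusted p under 0.05 (bars from 0), in the fit as reported (red) and under each alternative (grey). The count is 9 to 16 without a filter, without a variance trend or with averaged probe sets, 3 or fewer with a robust variance or without 5-week pool 1 or 3, and 19 to 26 elsewhere.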

How the data were processed

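The labels name total RNA as the starting molecule and biotinylated UTP as the label, and 6 arrays were read. The authors deposited linear signal intensities, 1 per probe set. Tested on the values, the mean without the lowest and highest 2% was 500 on every array. The sources used here do not name the algorithm, detection calls or batches. Of 45101 probe sets, 34945 carried a single gene symbol, updated through a RefSeq table of GRCm38.p6. Values under 1 became 1 before log2(signal + 32) was taken. Array medians lay within 0.118 of each other, and arrays were not normalized again. Dropping the dimmest 40% of probe sets by mean kept 27022. The fit used limma 3.58.1 (R 4.3.3), lmFit and then eBayes with a trend, with age as the only term (4 residual degrees of freedom, two-sided). Benjamini-Hochberg adjustment ran over the brightest probe set of each gene. The number of arrays limits the precision.

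The members, lists, alternatives and motifs were chosen with earlier results of these data known. The rule for named genes takes members of isoform pairs, called members and the 2 brightest of each role. From the other muscle list it takes called genes and the largest difference in each direction. From all genes tested that are not members, whether on another list or on none, it takes the 12 most alike. From every other list it takes the 2 brightest. The steps were tested on simulated data. Python 3.11.15 and matplotlib 3.10.9 drew the plots. Adjustment over probe sets was added after seeing the data.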

Additional observations from a re-analysis of the deposited data

How the results depend on the processing

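The count of members called lower, 22, was 9 with no filter, 11 with no variance trend and 1 with a robust variance, and 2 to 26 when 1 pool was left out. The count of members called higher, 0, was 0 to 1 when 1 pool was left out. The count of other muscle fibre genes called lower, 34, was 22 with no variance trend, 14 with a robust variance and 13 to 45 when 1 pool was left out. With no filter more genes entered the adjustment (18193). For the other settings the cause was not tested. The medians of fast and slow genes moved by less than the spread of pools under all alternatives run. That spread includes 10-week pool 1, far below the others in fast genes, so it is a loose measure. Over the pools left out the medians ranged from -2.69 to -1.20 and from -0.96 to 0.04, and fast minus slow from -2.34 to -0.63. Without 10-week pool 1 the fast median went from -2.14 to -1.20, and fast minus slow from -1.58 to -0.63. Counts over all genes stayed within 1.5 times their value. No paired analysis was possible because the pool numbers follow accession order and the labels tie no pool of one age to a pool of the other. With 3 pools per age, none of the isoform pairs could pass a threshold of 0.05. Dim signals limit Myh7, Tnni1 and Tnnt1.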
